A study of Mus musculus with 2 samples.

Results

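Clustered histone genes are the copies of the H1, H2A, H2B, H3 and H4 genes that lie side by side in a few stretches of the mouse genome. All genes counted in both libraries whose symbol begins with Hist1h, Hist2h, Hist3h or Hist4h were taken, which gave 67 of 32285 genes. Of these, 53 were selected on their own counts, having at least 50 unique molecular identifiers (UMIs, one per captured transcript) over both libraries, and the values below are those of the 53 unless a sum is named. By the symbols, the 67 held 6 linker histone H1 genes, 18 H2A, 18 H2B, 12 H3 and 13 H4 genes, of which 5, 12, 15, 10 and 11 reached that count. Just above the limit were Hist1h4b with 55 and Hist1h2bk with 60 UMIs, and just below it were Hist1h2ag with 43 and Hist1h2ai with 41. No UMI was counted for Hist1h2aa, Hist1h2ba or Hist1h2bq.

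The 2 libraries came from female mice of 11 to 12 months, homozygous for the human E4 or the human E3 allele knocked in at the mouse Apoe locus and expressed from its endogenous promoter. Right hemispheres of 3 mice per genotype, freed of brainstem and cerebellum, were pooled, digested with warm enzymes and captured with 10x Genomics 3′ version 3 chemistry, which primes on poly(A), and the labels call the result non-neuronal brain cells. The filter kept 13528 cells and 67584777 UMIs in the E4 library and 11288 cells and 53968601 UMIs in the E3 library, with medians of 4102 and 3803.5 UMIs per cell. Each genotype was 1 library, so genotype and library cannot be told apart, no test between them could be made, and the 95% intervals given cover counting error only. The libraries shared 44 cell barcodes.

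Histones are the proteins around which DNA is wound. Each nucleosome holds the core histones H2A, H2B, H3 and H4, and H1 binds the DNA that enters and leaves it. Most clustered histone genes are transcribed while DNA is copied in S phase, and their messages end in a short stem-loop, bound by Slbp, in place of a poly(A) tail. Some of them can also give longer, polyadenylated messages in cells that have left the cell cycle. Replacement histones such as H3.3 and H2A.Z are encoded outside the clusters by ordinary polyadenylated messages that are made throughout the cell cycle.

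On GRCm38 (mm10), with the GENCODE vM21 annotation, 54 of the 67 genes lay on chromosome 13 between positions 21715763 and 23934851. Another 10 lay on chromosome 3 between 96219865 and 96270132, 2 on chromosome 11 and 1 on chromosome 6. A stem-loop was searched for after the stop codon of each gene's longest coding transcript, as GG, pyrimidines, T, a loop, A, purines and CC, 16 bases in all. It was present in 45 of the 67 transcripts, with the arms fully paired, 21 to 58 bases beyond the stop codon. Among other coding genes with at least 100 annotated bases after the stop codon, 15 of 19714 (0.0761%) held such a stem-loop in the first 100, against 26 of the 31 clustered histone genes with a window of that length. The stretches of 6 genes follow, from GENCODE transcripts, with the stem-loop in capitals and 5 bases on each side. The first 4 are genes with large differences between libraries or cell states in the results, and the last 2 are genes with small ones.
Hist1h4d (chr13:23581945-23581970, plus strand): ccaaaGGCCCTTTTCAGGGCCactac
Hist1h1e (chr13:23621777-23621802, minus strand): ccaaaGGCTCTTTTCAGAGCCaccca
Hist1h3b (chr13:23752815-23752840, plus strand): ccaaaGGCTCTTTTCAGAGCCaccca
Hist1h3c (chr13:23745042-23745067, minus strand): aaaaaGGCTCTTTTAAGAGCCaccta
Hist1h1c (chr13:23739507-23739532, plus strand): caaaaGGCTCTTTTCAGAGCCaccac
Hist3h2a (chr11:58955167-58955192, plus strand): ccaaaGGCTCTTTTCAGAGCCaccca

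Altogether 8 different stem-loops were found. The commonest, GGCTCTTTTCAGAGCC, stood in 25 genes of the H1, H2A, H2B and H3 families and in no H4 gene. All 7 genes with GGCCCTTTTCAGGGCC, the stem seen in Hist1h4d, were H4 genes, as were both genes with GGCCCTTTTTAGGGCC, both with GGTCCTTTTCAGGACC and the 1 with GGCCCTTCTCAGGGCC. The stem therefore separated H4 from the other families in every annotated case. The annotated message did not stop there in many genes: 840 bases followed the stem-loop in Hist1h1c, 1643 in Hist3h2a, 1153 in Hist1h1e and 770 in Hist1h4d, but only 74 in Hist1h3c and 51 in Hist1h3b. Hist1h2bc, the most abundant of all, is spliced in its longest annotated form, which runs 742 bases past the stop codon without a stem-loop. Of the 53 genes, 15 had no stem-loop in the annotated transcript, and in 9 the annotation ended within 2 bases of the stop codon, so nothing could be searched. Hist1h1b, the H1.5 gene, was one of these 9. Its coding sequence held the stretch AAgAAgAAgAcAAcgAAAAA (chr13:21780475-21780494, minus strand, A in capitals), with 14 A in 20 bases, shown because this gene had many UMIs although no sequence after its stop codon is annotated.

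The promoters, 250 bases before to 50 after each start in RefSeq on GRCm38.p6, could be matched for 62 of the 67 genes. The octamer ATTTGCAT, searched on both strands and known from H2B promoters as a site for Oct-1, was in 6 of 16 H2B and 7 of 18 H2A promoters, in none of the 6 H1, 10 H3 or 12 H4 promoters, and in 1.71% of 26963 other promoters. CCAAT was in 53 of the 62, among them every H1, H2A, H2B and H3 promoter and 3 of 12 H4 promoters, against 37.8% of other promoters. TATAAA was in 35 of the 62, against 14.1% of other promoters. Some pairs of genes that start back to back shared a single octamer. In Hist1h2ah with Hist1h2bk and in Hist1h2aa with Hist1h2ba, at least 1 gene was under the count limit. A further pair is printed here from each gene's own strand. It was picked because the 2 genes read the same stretch and yet differed in dividing cells, as given further on.
Hist1h2ae (chr13:23571332-23571357, minus strand): agaggttctATGCAAATaagggactc
Hist1h2bg (chr13:23571332-23571357, plus strand): gagtcccttATTTGCATagaacctct

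Over all kept cells the 67 genes gave 80271 UMIs in the E4 library and 86851 in the E3 library. A few genes carried most of them: Hist1h2bc, an H2B gene, held 28.5% of the deposited UMIs of the family, Hist1h1c, the H1.2 gene, 14.9% and Hist1h1e, the H1.4 gene, 13.3%. By family, H2B and H1 led with 35.4% and 34.5% of UMIs, H4 had 14.8%, H2A 11.8% and H3 only 3.47%. Levels are given as CPM, the UMIs of a gene divided by all UMIs of the same cells and multiplied by 1e6. No correction for length was made, since 3′ tags are counted, so an order between genes is an order of captured tags.

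The cell types differed widely. Cells were grouped by clustering that left the histone genes out, and each class was named from marker genes. Neuroprogenitor-like cells, the class with Dcx among its markers, had the highest summed level, 5688 CPM in E4 and 9169 CPM in E3. Ependymal-like cells, the ciliated lining of the ventricles, had 2064 CPM in E4 and 1969 CPM in E3. Microglia-like cells had 1406 CPM in E4 and 2209 CPM in E3, choroid plexus-like cells 1350 and 1476 CPM, and macrophage-like cells 1178 and 2294 CPM. Below these were astrocyte-like cells with 864 and 1068 CPM, meningeal-like cells with 717 and 817 CPM, and endothelial-like cells with 537 and 688 CPM. Oligodendrocyte-like cells had 735 CPM in E4 and 932 CPM in E3. Erythroid-like cells had 91.9 CPM in E4 and 129.3 CPM in E3, the lowest of all, from 59 and 124 UMIs. Their 7 marker genes, haemoglobin genes among them, alone summed to 862629 and 906414 CPM. Little of the total was thus left to other genes, so this rank reflects the make-up of the total. The order of the classes in the middle depended on the library: ependymal-like cells ranked second in E4, but in E3 macrophage-like and microglia-like cells stood above them.

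**Figure D1:**
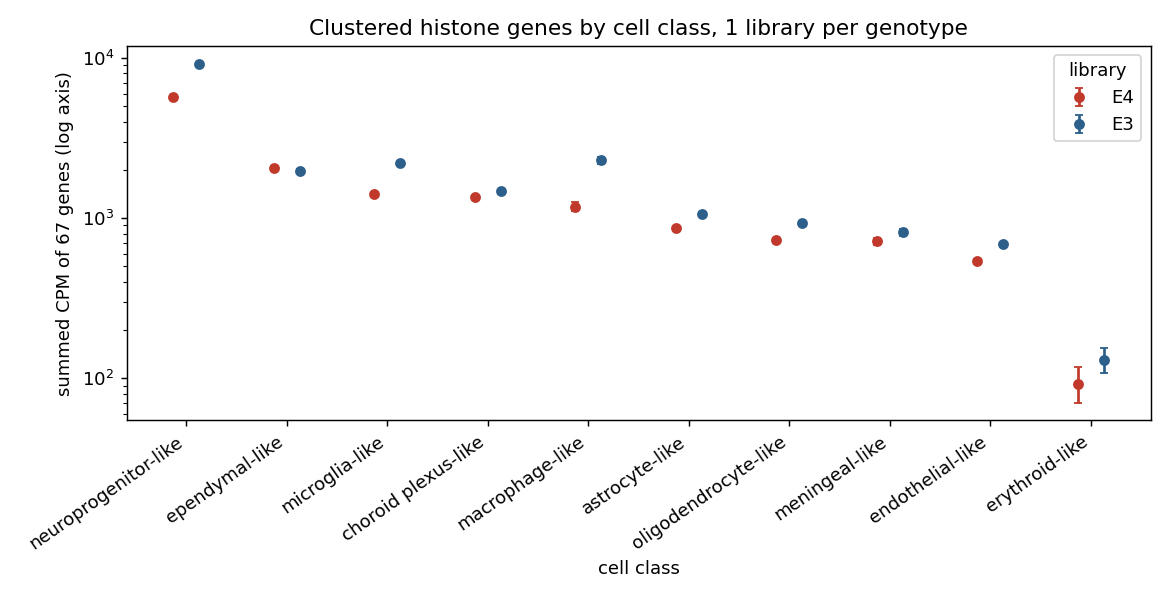
Summed CPM of the 67 clustered histone genes (log axis) in 10 cell classes, with the E4 library left and the E3 library right in each pair and exact 95% Poisson intervals, which cover counting error only. E4 lies below E3 in every class but ependymal-like cells, where it had 2064 against 1969 CPM.

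The abundant genes did not share one pattern across classes. Hist1h2bc was highest in choroid plexus-like cells, at 862 CPM in E4 and 946 CPM in E3, and second in ependymal-like cells, at 691 and 643 CPM, while microglia-like cells had 224 and 301 CPM. Hist1h1c was instead highest in microglia-like and macrophage-like cells in E4, at 375 and 286 CPM, as in E3, at 488 and 430 CPM. Neither gene was highest in the neuroprogenitor-like cells, which led in the sum.

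The other H1 genes were divided among the classes. Hist1h1e had 804 CPM in E4 and 1301 CPM in E3 in neuroprogenitor-like cells, and 283 and 530 CPM in microglia-like cells, but 28.6 and 46.4 CPM in choroid plexus-like cells. Hist1h1d, the H1.3 gene, had 142.4 CPM in E4 and 201 CPM in E3 in neuroprogenitor-like cells and 99.0 and 151.7 CPM in microglia-like cells, against 2.17 and 3.29 CPM in astrocyte-like cells. Hist1h1b was highest in neuroprogenitor-like cells, with 1050 CPM in E4 and 1442 CPM in E3, while macrophage-like cells had 17 and 65 UMIs of it. In other classes its level was low, as in astrocyte-like cells with 2.56 and 3.07 CPM and microglia-like cells with 1.62 and 2.14 CPM.

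Among H4 genes, Hist1h4h and Hist1h4i were highest in ependymal-like cells. Hist1h4h had 440 CPM there in E4 and 439 CPM in E3, more than in neuroprogenitor-like cells (123 and 245 CPM) or astrocyte-like cells (39.2 and 55.2 CPM). Hist1h4i had 206 and 199 CPM in ependymal-like cells, against 36.2 and 43.9 CPM in astrocyte-like cells. Hist1h4d was instead highest in neuroprogenitor-like cells, at 345 CPM in E4 and 873 CPM in E3, and had only 37.0 and 50.7 CPM in ependymal-like cells. Hist3h2ba, an H2B gene on chromosome 11, was high in neuroprogenitor-like cells (284 and 381 CPM) and in the oligodendrocyte-like class (73.7 and 97.0 CPM), while astrocyte-like cells had 4.13 and 6.14 CPM. These levels are a description, since the genes were chosen for their counts.

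Cells were called dividing where they had UMIs of at least 3 different genes out of 16 S phase and 20 G2/M genes, none of them a clustered histone gene. This gave 222 cells in E4 (1.64%) and 154 in E3 (1.36%), of which 121 and 90 were neuroprogenitor-like. The rule favours deep cells: dividing cells had medians of 11110.5 UMIs in E4 and 10467 in E3, against 4062 and 3770.5 in non-dividing cells, and 36 and 29 ependymal-like cells and 13 and 5 choroid plexus-like cells met it. In the E4 library the clustered histone genes summed to 4151 CPM in dividing and 1040 CPM in non-dividing cells, a log2 ratio of 2.0 (95% interval 1.97 to 2.02) or 3.99-fold. In the E3 library they summed to 6798 and 1381 CPM, a log2 ratio of 2.30 (2.27 to 2.32) or 4.92-fold. With each cell thinned to 1000 UMIs the log2 ratios were 2.25 in E4 and 2.55 in E3.

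Of the 53 genes, 45 were at least 2-fold higher in dividing cells of the E4 library and 47 in those of the E3 library, where 17.2% and 18.3% of 16277 genes were. Their median log2 ratio was 3.16 in E4 and 3.13 in E3, beside medians over all genes of 0.05 and 0.09. These counts and medians are descriptions only, since 10 of the 53, Hist1h3c and Hist1h3b among them, had under 50 UMIs in non-dividing cells and reached the limit through the dividing ones. Of the other 43 genes, 35 were at least 2-fold higher in E4 and 37 in E3, with medians of 2.19 and 2.53. Dividing cells held 4.74% of all UMIs in E4 and 4.21% in E3, but 16.6% and 17.8% of the clustered histone UMIs. For 18 genes in E4 and 19 in E3 they held more than 50% of the gene's UMIs. That count includes genes that reached the limit through dividing cells, such as Hist1h3c and Hist1h3b. It is a description only, since the same share over all genes was not computed.

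The 8 steepest genes were of the H3, H2A, H1 and H2B families. Hist1h3c had 320 UMIs in dividing and 4 in non-dividing cells of the E4 library (99.8 against 0.0621 CPM), and 504 and 8 in the E3 library (222 against 0.155 CPM). With both libraries summed, its log2 ratio was 10.51 (9.69 to 11.47), and that of Hist1h3b was 10.35 (8.98 to 12.24), with 247 UMIs in dividing and 4 in non-dividing cells. Dividing cells thus held 98.6% of the Hist1h3c UMIs. Hist1h2af followed with a log2 ratio of 9.16, then Hist1h1b with 7.90, Hist1h2an with 6.73, the H1.1 gene Hist1h1a with 6.46, Hist1h2ab with 6.34 and Hist1h2bm with 6.1. Of these 8 genes, Hist1h1b was by far the most abundant: it had 748 CPM in dividing and 3.04 CPM in non-dividing cells of E4, and 1117 and 4.70 CPM in those of E3. It was counted in 112 of 222 dividing E4 cells (50.5%) and 81 of 154 dividing E3 cells (52.6%), against 1.0% and 1.45% of non-dividing cells. Thinned to 1000 UMIs, these shares were 30.7% and 36.0% of dividing cells and 0.305% and 0.488% of non-dividing cells. In microglia-like cells it was counted in 0.530% of E4 and 0.464% of E3 cells, at medians of 4356 and 3729 UMIs among those not dividing. Single cells of that class held up to 7 and 6 of its UMIs. Thinned to 1000 UMIs, the microglia-like shares were 0.127% and 0.159%, far below the thinned shares of dividing cells.

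**Figure D2:**
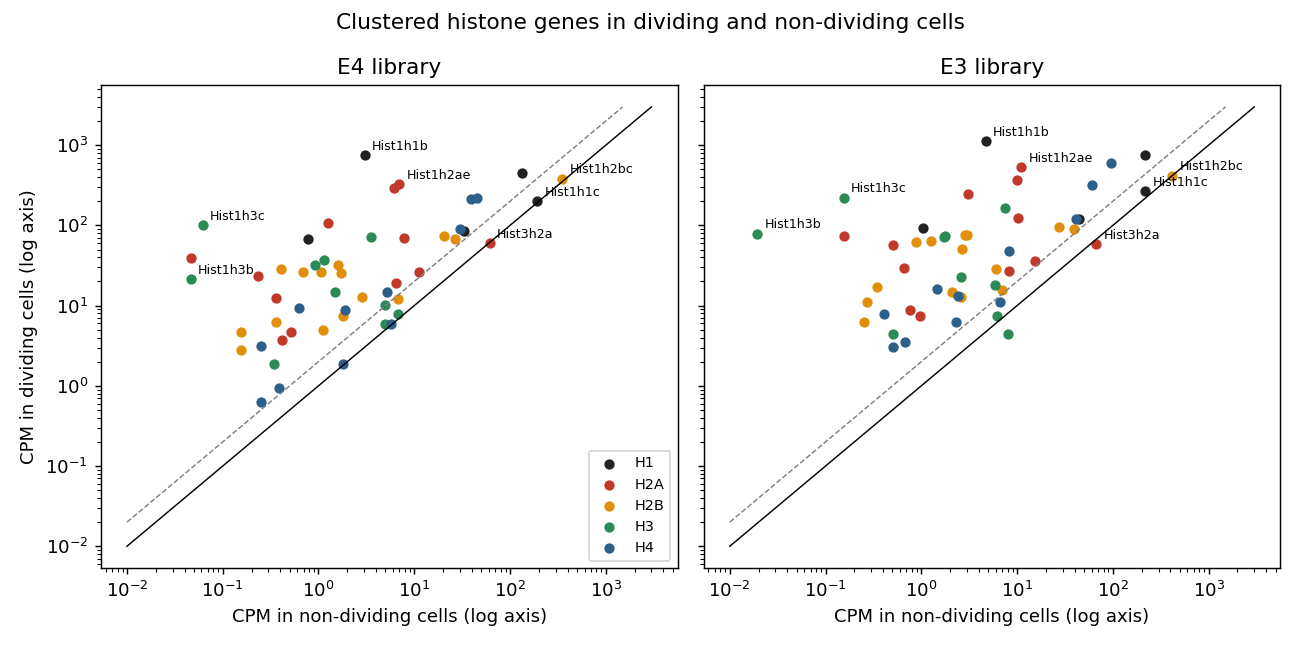
CPM of each of the 53 clustered histone genes in dividing cells (y axis, log) against non-dividing cells (x axis, log), with the E4 library left and the E3 library right, the line of equality solid and that of a 2-fold higher level dashed. Most genes lie above the dashed line, 45 in E4 and 47 in E3, while the abundant Hist1h2bc and Hist1h1c lie on or near the solid one.

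At the other end, 5 genes differed little over all cells, where the classes are pooled. Hist2h3c1 had a log2 ratio of dividing over non-dividing of -0.21 (-0.74 to 0.28) with both libraries summed, Hist3h2a -0.12 (-0.28 to 0.04), Hist1h2bc 0.06 (-0.01 to 0.12), Hist1h1c 0.16 (0.08 to 0.24) and Hist2h3c2 0.26 (-0.27 to 0.74). These ratios depend on the mix of classes. Of the Hist1h2bc UMIs in dividing cells, 602 of 1228 in E4 and 535 of 943 in E3 came from ependymal-like cells. Within neuroprogenitor-like cells it had 151 CPM in dividing and 219 CPM in non-dividing cells of E4, and 235 and 251 CPM in those of E3. Hist1h2bc and Hist1h1c are also the genes with the most UMIs, so the sum over the family understates the ratio of the typical member. The divergent pair printed above for its shared octamer was split: Hist1h2ae had a log2 ratio of 5.55 and 68.9% of its UMIs in dividing cells, and Hist1h2bg 2.19 and 17.8%.

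Other gene groups moved with cell division to different degrees, and the lists were not chosen independently of these data. Of 11 replacement histones with counts, 9 were at least 2-fold higher in dividing E4 cells and 10 in dividing E3 cells, with median log2 ratios of 2.48 and 2.55. Of 12 histone chaperones, which carry histones to DNA, 8 were so in E4 and 7 in E3, and of 11 factors of histone message processing 1 was in each library. The S phase and G2/M genes were all higher, as they defined the cells.

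Not all cells called dividing had a higher level of captured histone UMIs. Among neuroprogenitor-like cells the summed level was 8284 CPM in dividing and 2595 CPM in non-dividing cells of E4, and 14328 and 3814 CPM in those of E3, log2 ratios of 1.67 (1.61 to 1.74) and 1.91 (1.85 to 1.96). Ependymal-like cells had 2093 and 2046 CPM in E4, a log2 ratio of 0.03 (-0.05 to 0.12), and 1902 and 2000 CPM in E3, -0.07 (-0.16 to 0.01). Microglia-like cells called dividing were below the others of their class, with 902 against 1409 CPM in 14 E4 cells and 757 against 2214 CPM in 6 E3 cells, and none of these 20 cells had a UMI of Hist1h1b.

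Dividing cells with more S phase than G2/M genes (S-led) had a lower histone CPM than those with more G2/M genes (G2/M-led). Within neuroprogenitor-like cells of E4, 37 S-led cells had 2246 CPM and 81 G2/M-led cells 10882 CPM, a log2 ratio of -2.28 (-2.38 to -2.17). In E3, 17 S-led cells had 5191 CPM and 69 G2/M-led cells 16796 CPM, a log2 ratio of -1.69 (-1.79 to -1.59). The S-led cells thus lay below the non-dividing cells of their class in E4 and above them in E3. The G2/M-led cells were not free of S phase genes, however. Those with UMIs of 3 or more S phase genes, 69 in E4 and 49 in E3, had 11738 and 19889 CPM, while those with 1 or 2 such genes, 9 and 17 cells, had 2778 and 4636 CPM. A further 3 cells in each library had no S phase gene and 2916 CPM in E4 and 6436 CPM in E3. Among G2/M-led cells, those with 3 or more S phase genes thus stood above both other sets.

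**Figure D3:**
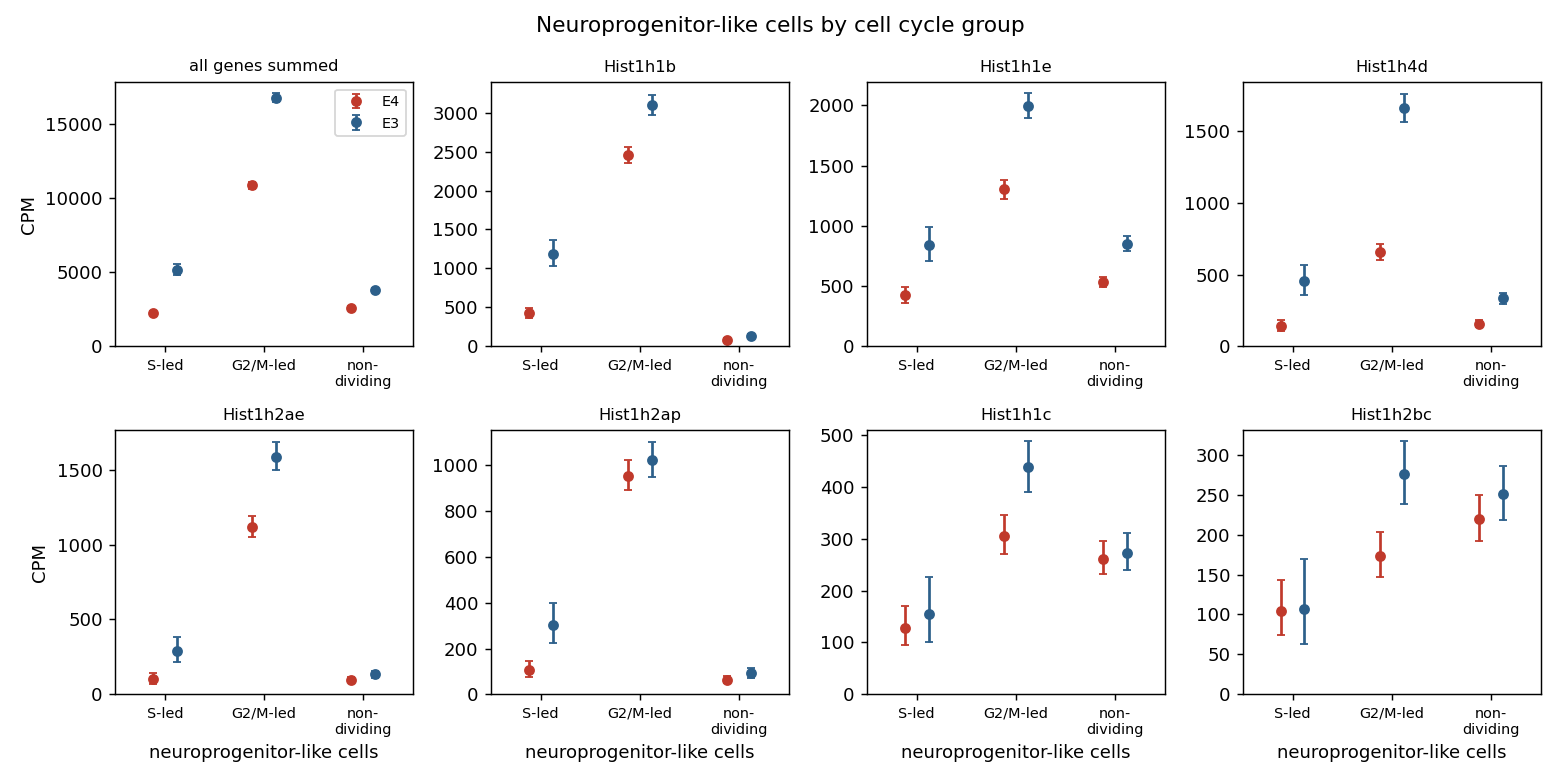
CPM in neuroprogenitor-like cells that were S-led, G2/M-led or non-dividing, for the sum of all clustered histone genes and 7 of them, with the E4 library left and the E3 library right and exact 95% Poisson intervals. The sum is highest in G2/M-led cells of both libraries (10882 CPM in E4, 16796 CPM in E3), as is each gene shown but Hist1h2bc in E4, which had 219 CPM in non-dividing and 173 CPM in G2/M-led cells.

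Set side by side over all cells, every one of the 53 genes was lower in E4 than in E3. The sum was 1188 CPM in E4 and 1609 CPM in E3, a log2 ratio of -0.44 (-0.45 to -0.42). At least 1.5-fold lower were 29 of 53, where 2.56% of 16277 genes were, and at least 1.5-fold higher were 0, where 1.66% were. The median over the 53 genes was -0.69 and over all genes 0.04, and 41.1% of all genes were lower. Without the 12 most abundant genes the sum was 148 CPM in E4 and 230.2 CPM in E3, a log2 ratio of -0.63 (-0.67 to -0.60).

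By role, the core histones H4 and H3 were furthest apart. H4 genes summed to 152.6 CPM in E4 and 258 CPM in E3 (log2 ratio -0.76, -0.80 to -0.72) and H3 genes to 37.5 and 61.4 CPM (-0.71, -0.79 to -0.64). Linker H1 genes gave 419 and 564 CPM (-0.43, -0.45 to -0.41), H2A genes 145.7 and 190.2 CPM (-0.38, -0.42 to -0.34) and H2B genes 433 and 535 CPM (-0.31, -0.33 to -0.28). Over all cells the intervals of H4 and H3 did not overlap those of the other families. In non-dividing cells the H3 interval (-0.52, -0.62 to -0.42) overlapped that of H1 (-0.42, -0.45 to -0.40), while H4 genes had -0.73 (-0.78 to -0.69). In astrocyte-like and microglia-like cells, too, H3 overlapped H1, and H4 stayed apart from H1, H2A and H2B.

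The lowest single ratio was that of Hist1h3b, with 71 UMIs in E4 and 180 in E3 (1.05 and 3.34 CPM, log2 ratio -1.67, -2.08 to -1.26). Among genes with at least 100 UMIs it was followed by Hist1h2an (-1.14), Hist1h2ad (-1.11), Hist1h2bb (-1.10) and Hist1h4d (-1.10). Hist1h4d was the abundant one of these, with 3653 UMIs in E4 and 6273 in E3, or 54.1 and 116.2 CPM. Hist1h1e had 10060 and 12959 UMIs, or 148.9 and 240.1 CPM, and a log2 ratio of -0.69 (-0.73 to -0.65). Least apart were Hist2h2be (-0.04, -0.23 to 0.16), Hist3h2a (-0.11), Hist1h1c (-0.19), Hist2h3c1 (-0.21) and Hist1h2bc (-0.24). Hist1h2bc had 23897 UMIs in E4 and 22502 in E3, or 354 and 417 CPM.

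The remaining genes among the 12 with the most UMIs lay between these extremes. Hist1h4h had 47.6 CPM in E4 and 71.0 CPM in E3 (log2 ratio -0.58), and Hist1h2ae 22.2 and 33.1 CPM (-0.58). Hist1h2be, an H2B gene, had 28.9 and 41.5 CPM (-0.52), Hist1h1d 35.7 and 48.0 CPM (-0.43), and Hist1h1b 38.4 and 51.5 CPM (-0.42). Hist1h4i had 33.2 and 44.2 CPM (-0.41) and Hist3h2ba 23.1 and 30.3 CPM (-0.39). All of these intervals lay below 0.

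**Figure D4:**
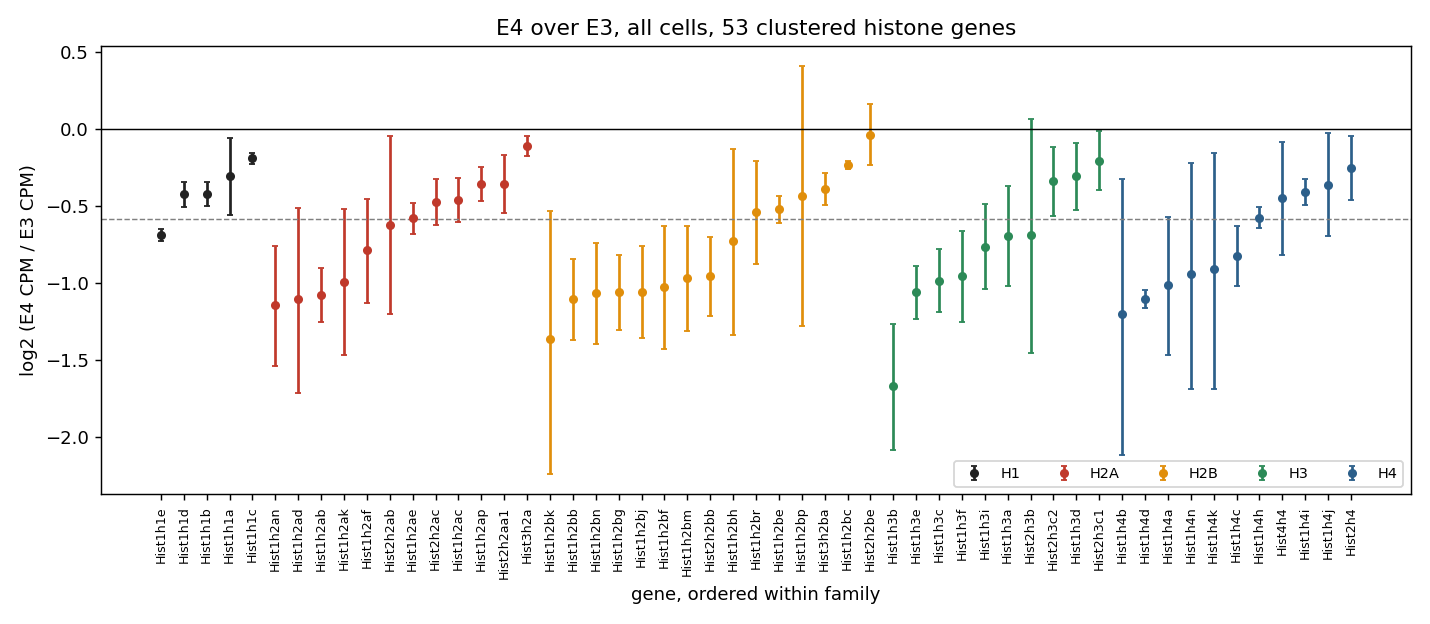
Log2 ratio of E4 to E3 CPM over all cells for each of the 53 clustered histone genes, ordered within family, with exact 95% intervals for counting error. The solid line marks equal levels and the dashed line a 1.5-fold lower level in E4. All 53 points lie below the solid line and 29 at or below the dashed one.

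The difference was present in dividing and in non-dividing cells. Dividing cells had 4151 CPM in E4 and 6798 CPM in E3 (log2 ratio -0.71, -0.75 to -0.68). Of 41 genes with at least 50 UMIs there, 40 were lower, where 47.3% of all genes were. At least 1.5-fold lower were 27, where 4.77% of genes were, and at least 1.5-fold higher were 0, where 7.89% were. Non-dividing cells had 1040 CPM in E4 and 1381 CPM in E3 (log2 ratio -0.41, -0.42 to -0.39), with 43 of 43 genes lower, beside 41.3% of all genes. Of the 43, 23 were at least 1.5-fold lower, beside 2.98% of genes, and 0 at least 1.5-fold higher, beside 1.49%. In dividing cells Hist1h3b was lowest again, with 21.2 CPM in E4 and 78.8 CPM in E3 (-1.89, -2.32 to -1.48), then Hist1h4c with 14.7 and 48.0 CPM (-1.71) and Hist1h2bf with 16 and 34 UMIs (-1.58). Hist3h2a had 59.9 and 58.1 CPM (0.04, -0.28 to 0.37). In non-dividing cells Hist1h2bj (-1.32), Hist1h2ab (-1.30) and Hist1h4a (-1.24) were lowest.

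Neuroprogenitor-like cells were also compared within cell cycle groups, which are calls from gene counts and can hold cells of several stages. In S-led cells the sum had a log2 ratio of -1.21 (-1.35 to -1.07). In G2/M-led neuroprogenitor-like cells with UMIs of 3 or more S phase genes the sum was 11738 CPM in E4 and 19889 CPM in E3, a log2 ratio of -0.76 (-0.80 to -0.72). Hist1h4d had 658 CPM in E4 and 1662 CPM in E3 in G2/M-led neuroprogenitor-like cells (-1.34, -1.48 to -1.19). Those G2/M-led cells differed in make-up, since 69 of 81 in E4 and 49 of 69 in E3 had 3 or more S phase genes. Hist1h2ap varied between the groups: its ratio was -0.10 (-0.24 to 0.05) in G2/M-led cells, with 955 and 1022 CPM, but -1.51 (-2.15 to -0.88) in S-led cells and -0.53 (-1.02 to -0.05) in non-dividing cells. In the non-dividing cells of that class Hist1h4d again had the wider gap, with 158 CPM in E4 and 335 CPM in E3 (-1.08), beside 262 and 273 CPM of Hist1h1c (-0.06, -0.32 to 0.19).

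Among the classes, the immune cells of the brain and the neuroprogenitor-like cells were furthest apart. In microglia-like cells the log2 ratio of the sum was -0.65 (-0.68 to -0.63). Of 35 genes with 50 UMIs there, 34 were lower, where 36.4% of all genes were. At least 1.5-fold lower were 25, where 1.21% of genes were, and at least 1.5-fold higher were 0, where 3.28% were. Hist1h2ab (36 and 82 UMIs, -1.74) and Hist1h2bj (47 and 102 UMIs, -1.67) were lowest, and Hist1h1a had 34 and 22 UMIs (0.07, -0.74 to 0.92). Hist1h1e in microglia-like cells had a log2 ratio of -0.91 (-0.96 to -0.85) and Hist1h1c -0.38 (-0.43 to -0.33). Macrophage-like cells had a ratio of the sum of -0.96 (-1.08 to -0.85), with 10 of 10 genes lower, beside 44.4% of all genes. In macrophage-like cells 8 were at least 1.5-fold lower, beside 5.26% of genes, and 0 at least 1.5-fold higher, beside 5.58%. Hist1h2ap (8 and 46 UMIs, -2.78) and Hist1h1b (17 and 65 UMIs, -2.20) were lowest in them, but 46 of the 65 Hist1h1b UMIs in E3 came from 1 cell.

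Neuroprogenitor-like cells had a ratio of -0.69 (-0.72 to -0.66), with 39 of 39 genes lower, beside 39.5% of all genes. In this class 27 were at least 1.5-fold lower, beside 1.90% of genes, and 0 at least 1.5-fold higher, beside 6.41%. Hist1h3b (-1.73), Hist1h4c (-1.67) and Hist1h2bf (-1.56) were lowest there, and Hist3h2a (-0.16), Hist1h4i (-0.18) and Hist1h2ap (-0.25) least apart. The share of this class called dividing was 32.1% (27.4 to 37.1) in E4 and 26.9% (22.3 to 32.0) in E3, with intervals that overlapped. The clusters that made up the class were one led by Adarb2 and Dcx and one led by Hmmr and Mki67, genes of dividing cells.

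Astrocyte-like cells had a smaller gap, with a log2 ratio of the sum of -0.31 (-0.34 to -0.27). Of 26 genes, 24 were lower, where 46.5% of all genes were. At least 1.5-fold lower were 7, where 1.54% of genes were, and at least 1.5-fold higher were 0, where 1.68% were. Hist1h4d (485 and 1054 UMIs, -1.28) and Hist1h1e (949 and 1487 UMIs, -0.80) were lowest among genes with at least 100 UMIs, then Hist2h2aa1 (-0.67), Hist2h2ac (-0.57) and Hist3h2ba (-0.57). Hist2h4 (0.12) and Hist2h2be (0.16) had intervals that spanned 0, as had Hist3h2a (-0.07) and Hist2h3c1 (-0.05), and Hist1h1c had a ratio of -0.14.

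Endothelial-like cells had a ratio of -0.36 (-0.42 to -0.30), with 13 of 16 genes lower, beside 37.0% of all genes. In endothelial-like cells 5 were at least 1.5-fold lower, beside 1.12% of genes, and 0 at least 1.5-fold higher, beside 3.60%. Hist1h4d (-1.10), Hist1h3e (-0.99) and Hist1h2be (-0.94) were lowest in them, and Hist2h2ac (0.15), Hist3h2a (0.16) and Hist2h2be (0.26) had intervals across 0. Oligodendrocyte-like cells had a ratio of -0.34 (-0.40 to -0.28), with 8 of 9 genes lower, beside 41.4% of all genes. In oligodendrocyte-like cells 4 were at least 1.5-fold lower, beside 1.77% of genes, and 0 at least 1.5-fold higher, beside 4.29%. Hist1h2be (-1.23), Hist1h4d (-1.12) and Hist1h4h (-0.67) were lowest there, Hist1h1c (-0.16) and Hist1h2bc (-0.12) least apart, and Hist1h1d had 38 and 22 UMIs (0.56, -0.23 to 1.39).

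The 2 epithelial classes of the ventricles had the ratios of the sum nearest 0, but were not alone in a small gap. Meningeal-like cells, 192 in E4 and 177 in E3, had -0.19 (-0.30 to -0.08). Single clusters of other classes also lay near 0, as an astrocyte-like one led by Myoc (-0.07, -0.20 to 0.06) and an endothelial-like one led by Arhgef15 (0.01, -0.18 to 0.20). Choroid plexus-like cells had a ratio of the sum of -0.13 (-0.17 to -0.08), with 8 of 14 genes lower, beside 43.4% of all genes. At least 1.5-fold lower were 3, beside 2.63% of genes, and at least 1.5-fold higher 0, beside 2.60%. The 3 were Hist1h4d (-1.07), Hist1h1d (-0.80) and Hist1h1e (-0.70), while Hist2h3c1 (0.45), Hist2h3c2 (0.35) and Hist2h2aa1 (0.18) had intervals across 0. Ependymal-like cells had a ratio of 0.07 (0.01 to 0.12), the only one of the 10 classes above 0, with 4 of 14 genes lower, beside 48.5% of all genes. At least 1.5-fold lower were 0, beside 2.87% of genes, and at least 1.5-fold higher 1, beside 3.16%. The ependymal-like cells numbered 189 in E4 and 192 in E3, also under the 200 cells per library asked for a comparison by class. Hist1h4d (-0.45, -0.85 to -0.06) and Hist1h1e (-0.38, -0.71 to -0.05) were lower in them as elsewhere, Hist2h3c2 had -0.38, and Hist1h2ac (0.50), Hist3h2ba (0.22) and Hist1h1b (2.38) were highest. The Hist1h1b value rests on 41 UMIs in E4, of which 37 came from 1 cell, and 9 in E3.

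Hist1h4d and Hist1h1e were thus lower in E4 in each of the 7 classes with 200 cells and in ependymal-like cells, with intervals below 0. For Hist1h4d the ratio lay between -1.34 in neuroprogenitor-like cells and -0.45 in ependymal-like cells, and for Hist1h1e between -1.19 in macrophage-like cells and -0.38 in ependymal-like cells. By single clusters, the sum was lower in 23 of 26 clusters, with the interval below 0 in 21, and the log2 ratios lay between -0.96 and 0.14.

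The annotated length after the stem-loop, which took no part in choosing the genes, was set beside both measures. The grouping was made after the values were known. In the 22 genes with 100 or more annotated bases after the stem-loop the median log2 ratio of dividing over non-dividing was 1.66 and that of E4 over E3 was -0.46. In the 16 genes with fewer, the medians were 3.84 and -1.0, and in the 15 without an annotated stem-loop 4.74 and -0.69. At least 1.5-fold lower in E4 were 8 of the 22 genes, 12 of the 16 and 9 of the 15. Of the 22, 15 had AATAAA or ATTAAA after the stem-loop, the poly(A) signal, against 1 of the 16. The whole annotated end was searched, so longer ends had more places for it. These 2 counts thus follow in part from the grouping by length and were not set against ends of equal length. Across the 38 genes with a stem-loop, Spearman's rho of the annotated bases after it was -0.62 with the dividing ratio and 0.53 with the ratio of E4 to E3. Over all 53 genes rho between these ratios was -0.58, and between a gene's UMIs and its ratio of E4 to E3 0.50. The medians and rho of the dividing ratio include genes that passed the count limit through dividing cells. Genes with at least 50 UMIs in non-dividing cells were 21 of the 22, 12 of the 16 and 10 of the 15. Their median log2 ratios of E4 over E3 in non-dividing cells were -0.43, -0.82 and -0.59. The points share both libraries, and sequence is shared among genes, so these are descriptions and carry no test.

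**Figure D5:**
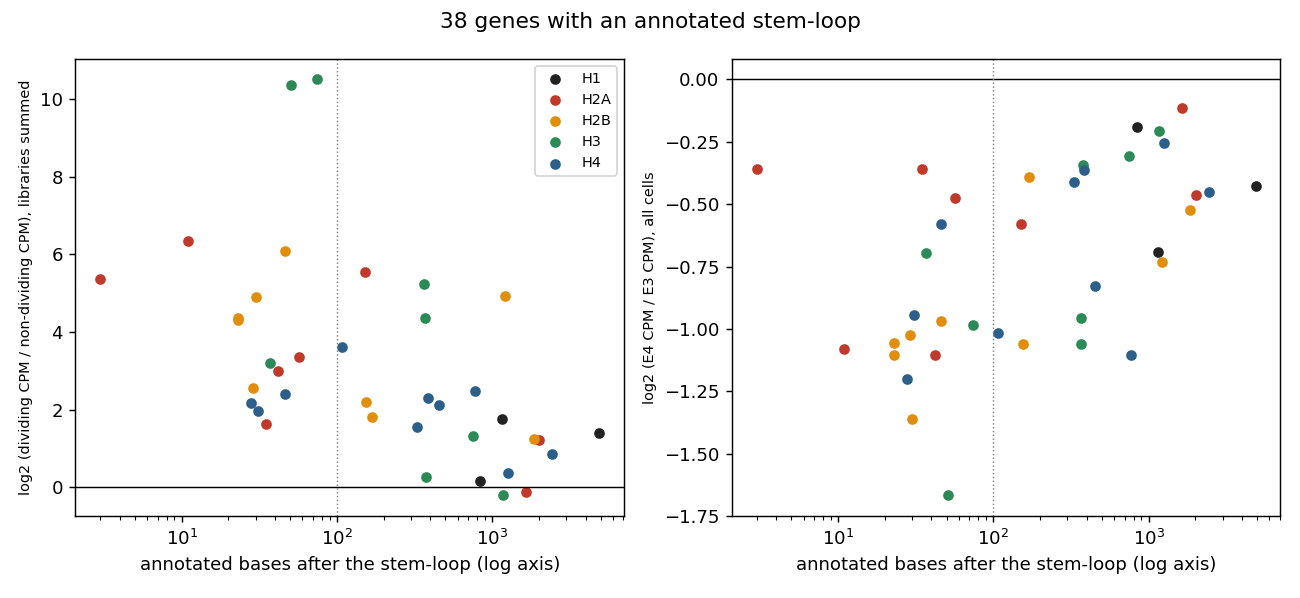
Annotated bases after the stem-loop (x axis, log) in the 38 clustered histone genes that have one, against the log2 ratio of dividing over non-dividing cells (left) and of E4 over E3 in all cells (right), with the dotted line at 100 bases. Genes with longer annotated ends had smaller ratios of dividing cells (rho -0.62) and ratios of E4 to E3 nearer 0 (rho 0.53). The left panel includes genes that passed the count limit through dividing cells.

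Capture and sequence both limit the counts. The libraries primed on poly(A), so messages that end in the stem-loop without a tail may be missed. The UMIs therefore do not measure all histone message, in dividing cells or in others. A median of 45.8% of the 50-base pieces of an annotated transcript of these 53 genes occurred in another gene too, and in 22 genes more than 50% did, so UMIs may have been split between or lost from near-identical copies. All pieces of Hist2h3c1 and 93.1% of those of Hist1h2ap were shared, 10.2% in Hist1h4d, 8.54% in Hist1h1c and none in Hist1h1b and Hist2h2be. Hist1h1e and Hist1h2be overlap on the same strand in the annotation.

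Several other gene groups were set beside the E4 to E3 ratios over all cells. None of the replacement histones, processing factors or chaperones with counts differed by 1.5-fold. Of 11 replacement histones, 4 were lower and 7 higher in E4 (median log2 ratio 0.04), among them H3f3b, which encodes H3.3, with 1413 CPM in E4 and 1264 CPM in E3, and H2afz with 369 and 366 CPM. Of 11 processing factors 10 were higher (median 0.17), with Slbp, the stem-loop binding protein, at 42.3 CPM in E4 and 37.5 CPM in E3. Of 12 chaperones, 4 were lower and 8 higher (median 0.05). Of 16 S phase genes 15 were higher in E4 (median 0.27) and 4 at least 1.5-fold, as Exo1 with 93 and 30 UMIs, and of 20 G2/M genes 17 were (median 0.10). Over all cells the share of genes lower in E4 was thus smaller in each of these lists than among the clustered histone genes. This did not hold in every group of cells. Of replacement histones, 7 of 8 were lower in choroid plexus-like and 8 of 10 in ependymal-like cells, none by 1.5-fold. Clustered histone genes there were lower in 8 of 14 and 4 of 14. In dividing cells 9 of 11 replacement histones were lower, against 40 of 41 clustered histone genes.

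Other transcripts differed between the libraries as well. All 5 counted transcripts without a poly(A) tail or overlapping ribosomal RNA were lower in E4, with a median log2 ratio of -0.85: Gm42418 had 12040 CPM in E4 and 27156 CPM in E3, Lars2 504 and 1283, AY036118 373 and 673, Gm26917 88.5 and 100.3, and Rmrp 1.70 and 2.87. All 5 were lower in astrocyte-like and in microglia-like cells too, where their sums had log2 ratios of -1.15 and -1.24. In choroid plexus-like and ependymal-like cells 4 had at least 50 UMIs, all lower, and the sums had ratios of -1.47 and -0.88. The histone sums of these classes had, in the same order, ratios of -0.31, -0.65, -0.13 and 0.07, so the 2 signals did not keep the same order across classes. The 4 haemoglobin genes summed to 8645 CPM in E4 and 17089 CPM in E3 (median -1.02). Of 20 immediate-early and stress genes, which respond to dissociation, 17 were higher in E4 (median 0.41), such as Fos with 623 and 411 CPM and Egr1 with 270 and 153 CPM, and of 6 nuclear transcripts 3 were (median 0.03). Among microglia-like cells, the cluster led by Atf3, Ccl4 and other immediate-early genes held 1012 of 3959 cells in E4 and 628 of 3230 in E3, and the histone sum outside that cluster, over all cells, had a log2 ratio of -0.46. The part of these signals in the histone values was not tested.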

How the data were processed

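The authors deposited raw UMI counts per gene and cell, made with Cell Ranger on mm10; the matrix headers name version 6.1.1 for E4 and 6.1.2 for E3, and the annotation version is not given in the sources used here. Following the study, barcodes under 50 or over 50000 UMIs, or with over 30% of them mitochondrial, were dropped, and more passed here than the study plots. Counts scaled to 10000 per cell were clustered with scanpy 1.11.5 (1987 variable genes after 13 histone genes were left out, 20 principal components, 15 neighbours, Leiden resolution 1). Clusters were named where at least 3 markers were 2-fold higher and present in 20% of cells; clusters with markers of 2 types or contradictory leading genes stayed unnamed, as did shallow ones without a marker among their 10 leading genes. A shallow cluster with such a marker, led by Scrg1 (708 E4 and 805 E3 cells), stayed astrocyte-like. A mixed cluster of 20 E4 and 9 E3 cells, taken as doublets, entered no class but stayed in the sums over all, dividing and non-dividing cells. Scrublet calls (6.25% of E4 and 4.69% of E3 cells) served an alternative only.

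UMIs were summed per class and library and scaled to CPM. Ratios have exact binomial-split and levels exact Poisson intervals (95%, scipy 1.17.1). Simulated libraries with E4 over E3 changes in 200 of 16277 genes returned 99% of 2-fold changes beyond 1.5-fold. Their counts were Poisson draws without variation between libraries or cells, so they checked the calculation only. Named were the 12 genes with the most UMIs, the highest and lowest E4 to E3 ratios (5 in all and in astrocyte-like cells with at least 100 UMIs, 3 in other classes with at least 50) and the 8 highest and 5 lowest dividing ratios. The genes and lists were chosen with earlier results of these data known. Sequences are from GENCODE vM21 and RefSeq.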

Additional observations from a re-analysis of the deposited data

Results flagged for a closer look

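Ratios of E4 to E3 that lay on opposite sides of 0 in 2 cell classes, each with its 95% counting interval clear of 0, were found for 3 genes. In none of them was the difference between the classes itself tested, and each genotype was 1 library. Hist1h1b had a log2 ratio of 2.38 (1.31 to 3.60) in ependymal-like cells and of -2.20 (-3.06 to -1.41) in macrophage-like cells, where 37 of 41 E4 UMIs in ependymal-like cells and 46 of 65 E3 UMIs in macrophage-like cells came from 1 cell each. Hist1h2ac had 0.50 (0.07 to 0.94) in ependymal-like cells and -0.76 (-0.95 to -0.56) in microglia-like cells, and its UMIs were spread over 66 ependymal-like cells in E4 and 55 in E3. Hist1h2bc had 0.10 (0.01 to 0.20) in ependymal-like cells and -0.53 (-0.88 to -0.17) in macrophage-like cells.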

How the results depend on the processing

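No alternative reversed a direction. The log2 ratio of E4 to E3 over all cells (-0.44) was -0.47 with a stricter cell filter (at least 1000 UMIs and at most 10% mitochondrial) and -0.47 with mitochondrial, haemoglobin and rRNA-overlapping genes left out of the totals, -0.52 with cells thinned to 1000 UMIs, -0.69, -0.53 and -0.35 in the shallowest, middle and deepest of 3 equal parts of the cells by UMIs, -0.36 as the median of the ratios of the 7 classes, -0.52 without Hist1h2bc and, chosen after seeing the data, -0.46 outside the cluster led by Atf3 and Ccl4. Leaving out called doublets gave -0.43. In astrocyte-like cells it was -0.26 thinned and -0.24 in the shallowest part, and -0.31 without the shallow cluster led by Scrg1, also chosen after seeing the data. In microglia-like cells it was -0.72 thinned and -0.84, -0.57 and -0.50 from the shallowest to the deepest part. In endothelial-like cells it was -0.24 in the middle part. The log2 ratio of dividing over non-dividing cells was, for E4 and E3, 2.10 and 2.34 with the stricter filter, 1.97 and 2.23 with the reduced totals, 2.25 and 2.55 thinned, 2.06 and 2.37 without doublets, 1.38 and 1.53 with 2 listed genes, 2.80 and 3.08 with 5, and 1.67 and 1.91 in neuroprogenitor-like cells alone. Genes at least 1.5-fold lower in E4 numbered 29 of 53, but 19 of 42 at a minimum of 200 UMIs and 19 of 36 thinned, where fewer genes reach the limit. None was 1.5-fold higher under any alternative run. No paired analysis was possible because each genotype has 1 library, and no replicate could be left out. With counting error only, genes near 50 UMIs have intervals over 1 wide on the log2 scale.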
